A study of Mus musculus with 18 samples.

Results

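The dystrophin complex and utrophin genes were described in bone marrow-derived macrophages (BMDM) as 8 genes taken by name from the GENCODE vM21 annotation of the mm10 genome: Dmd, Utrn, Dag1, Sgca, Sgcb, Sgcd, Sgce and Dtna. They are 8 of 21938 protein-coding genes. Dystrophin, the product of Dmd, ties the actin cytoskeleton of the muscle fibre to dystroglycan, the product of Dag1, which binds laminin outside the cell, while the sarcoglycans stabilise this link in the membrane and dystrobrevin, the product of Dtna, binds dystrophin on the inner side. Utrophin is the autosomal homologue of dystrophin and can take its place in the complex. H3K27me3 is the histone mark laid down by Polycomb at silenced genes, and H3K27ac marks active promoters and enhancers.

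The study measured both marks by ChIP-seq in unstimulated BMDM from male mice, grown from marrow for several days in medium conditioned by L929 cells, with native chromatin digested by micrococcal nuclease. WT mice were labelled C57BL6. mdx mice were labelled Dmdmdx-4Cv and carry a nonsense mutation in Dmd that stops full-length dystrophin and leaves the short isoform Dp71 intact. The mdxTLR4-/- mice lack Tlr4 in addition, and their label gives a mixed strain, Bl6/Bl10, so that the strain label cannot be told apart from this genotype, while the study's methods place the mice on a C57BL/6J background. For H3K27me3 there were 2 ChIP libraries per genotype, from mice of 12 to 13 weeks in WT, 14 to 15 in mdx and 16 to 17 in mdxTLR4-/- by the labels. Over the 18 libraries the labelled ages go up in steps of 1 week, from 6 to 23 weeks, so that they follow genotype, and whether they are the true ages of the mice is unsure. For H3K27ac there were 2 ChIP libraries for WT (19 to 20 weeks), 2 for mdx (21 to 22 weeks) and 1 for mdxTLR4-/- (23 weeks). The authors merged the libraries of a genotype and called peaks once, so each genotype is 1 peak list for each mark, without replicates, and no difference between genotypes below has a test. A peak carries a count of ChIP reads, and the window of a gene took in its body, the 5 kb before its start and the 1 kb after its end.

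The H3K27me3 lists of WT, mdx and mdxTLR4-/- BMDM held 28143, 41780 and 36488 peaks, and the median peak of these lists had 123, 89 and 75 reads. The H3K27ac lists were shallow. They held 15665, 12076 and 12493 peaks in the same order, with a median of 10, 10 and 8 reads and a minimum of 5 reads in each list. An absent peak therefore means that none was listed, not that the mark was absent.

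The label of the cells was checked on marker genes. H3K27ac lay within 1 kb of the start of 8 of 11 macrophage markers in WT, 10 in mdx and 9 in mdxTLR4-/-, and 8 markers had it in every list. The peaks at Spi1, the macrophage lineage factor, held 108, 96 and 95 reads, and those at Lyz2, lysozyme, held 108, 132 and 85 reads. Cx3cr1 had no H3K27ac peak at its start in any list. None of 8 skeletal muscle markers, 5 fibroblast markers, 4 T and B cell markers or 3 neutrophil markers had H3K27ac at the start in any list. H3K27me3 peaks covered at least 50% of the window of 6 of the 8 muscle markers in each list, among them Des, the muscle intermediate filament, at 100% in all 3 lists.

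**Figure D1:**
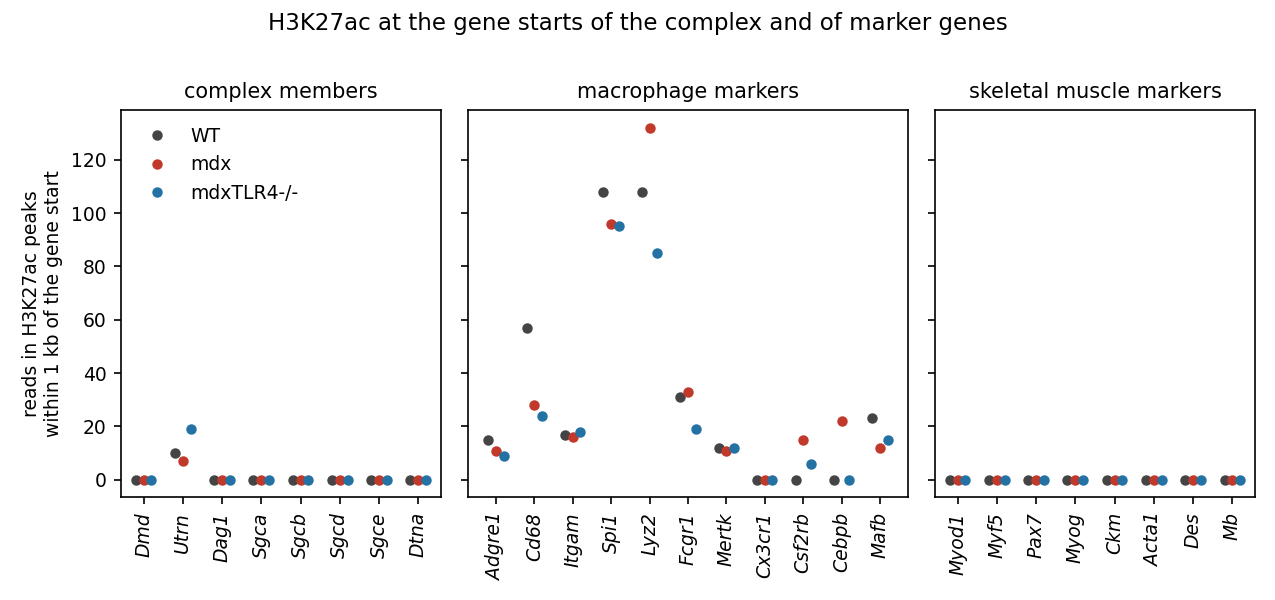
Reads in H3K27ac peaks within 1 kb of the gene start (vertical axis) for the 8 genes, 11 macrophage markers and 8 skeletal muscle markers, 1 point per genotype list. Utrn, with 10, 7 and 19 reads, is the only one of the 8 genes above 0. The macrophage markers run from 0 at Cx3cr1 to 108, 96 and 95 reads at Spi1 and 108, 132 and 85 at Lyz2, with 15, 11 and 9 reads at Adgre1 and 12, 11 and 12 at Mertk, and the muscle markers are at 0.

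Peaks of H3K27me3 were listed in the windows of 5 of the 8 genes for WT, 6 for mdx and 7 for mdxTLR4-/-. Over all protein-coding genes the shares were 38.4%, 41.3% and 39.0%. Of the 4 members with windows of at least 100 kb, 1 had a peak in WT, 2 in mdx and 3 in mdxTLR4-/-, against 54.3%, 59.8% and 57.0% of all genes with such windows. The same 5 genes, Dag1, Sgca, Sgcb, Sgcd and Sgce, had a peak in every list, as did 34.8% of all protein-coding genes, although the mdxTLR4-/- peak at Dag1 reached only 0.158 kb into the window and was lost when an overlap of at least 200 bp was required. Utrn was the 1 gene of the 8 without a peak in any list, against 55.5% of all genes. Only Sgca had at least 50% of its window covered, in each list, where the background was 16.6% of genes in WT, 16.3% in mdx and 14.9% in mdxTLR4-/-. A peak lay over the gene start of Sgca, Sgcd and Sgce in each list, and 20.1% of all protein-coding genes had this in all 3 lists. The 8 genes differed from each other in extent, from none of the window in Utrn to the whole gene body in Sgca.

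**Figure D2:**
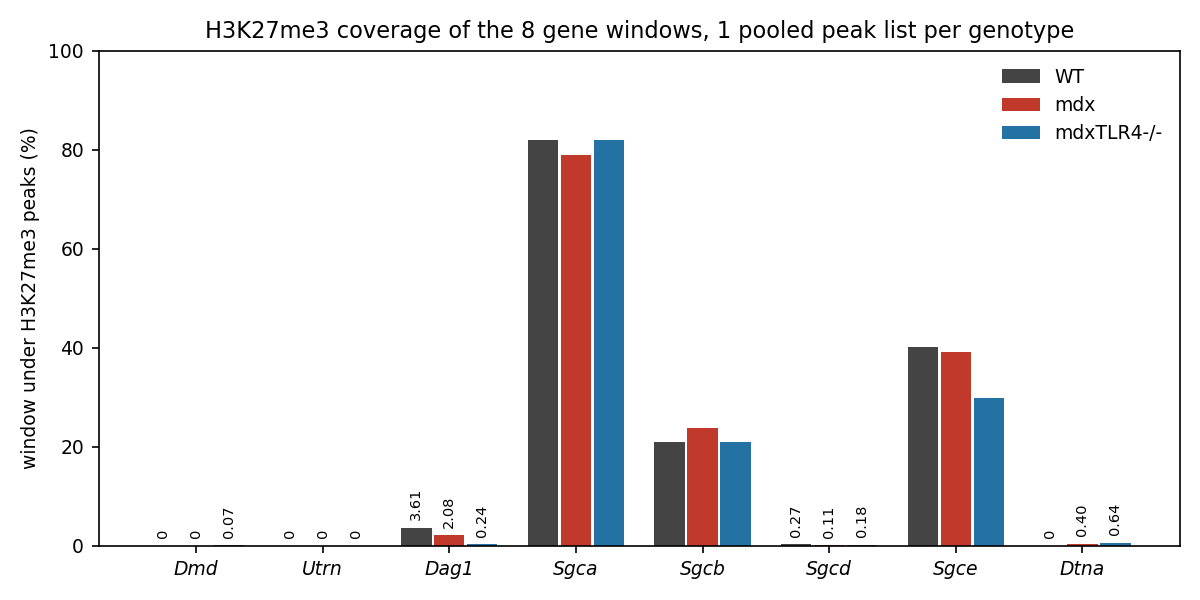
Percent of each gene window under H3K27me3 peaks (vertical axis, from 0) for the 8 genes, with 1 bar for each genotype list and values under 5% printed above the bar. Sgca (81.9%, 78.9% and 81.9%), Sgce (40.1%, 39.1% and 29.9%) and Sgcb (20.9%, 23.7% and 20.9%) stand above the other genes.

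Dmd is the gene that is mutated in mdx mice. It lies on the plus strand at chrX:82948870-85206141 and its longest coding transcript, Dmd-203, has 79 exons. Its long-form promoter and the promoter of the short transcripts inside intron 62 (Dmd-201 and Dmd-202, where Dp71 starts) are shown because only the neighbourhood of the inner one was marked. The sequences are RefSeq promoters of build GRCm38.p6, of 250 bases before and 50 after the start, on the plus strand, at chrX:82948620-82948919 and chrX:85048045-85048344. Capitals mark CG dinucleotides.
Dmd long-form promoter: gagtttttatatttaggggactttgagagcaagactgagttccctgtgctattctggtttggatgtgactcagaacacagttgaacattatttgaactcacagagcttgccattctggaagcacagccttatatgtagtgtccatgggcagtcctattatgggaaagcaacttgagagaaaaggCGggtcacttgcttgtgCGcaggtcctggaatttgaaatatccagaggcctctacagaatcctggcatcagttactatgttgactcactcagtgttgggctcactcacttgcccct
Dmd inner promoter: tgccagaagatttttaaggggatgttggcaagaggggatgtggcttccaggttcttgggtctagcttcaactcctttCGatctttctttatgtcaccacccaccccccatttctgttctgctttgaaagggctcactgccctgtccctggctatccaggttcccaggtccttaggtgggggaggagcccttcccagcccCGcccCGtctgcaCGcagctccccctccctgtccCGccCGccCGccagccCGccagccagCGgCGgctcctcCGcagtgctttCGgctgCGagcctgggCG
The long-form promoter holds 2 CG dinucleotides and the inner one 14, where the median over 32851 RefSeq promoters was 7 (quartiles 3 and 20).

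No H3K27me3 peak was listed in the Dmd window in WT or in mdx BMDM. In mdxTLR4-/- BMDM there was 1 peak, chrX:85048401-85050000, with 35 reads and 21.9 reads per kb. It lies 2099.5 kb into the gene, in intron 62 of Dmd-203, and begins 56 bases past the end of the inner promoter shown above. Near its edge it covers the GENCODE start of Dmd-201 and Dmd-202, chrX:85048413. The RefSeq start of the inner promoter, chrX:85048295, lies outside it. The peak was short and of middling density, longer than or as long as 15.3% and as dense as or denser than 38.9% of the peaks of its list. In WT and mdx BMDM the nearest H3K27me3 peak to the GENCODE start was 8227 kb and 8229 kb away. The mark was sparse on the whole chromosome, with 118 peaks on the X in WT, 221 in mdx and 193 in mdxTLR4-/-, covering 0.304%, 0.430% and 0.340% of it. Of the X-linked protein-coding genes, 8.86%, 13.4% and 13.3% had a peak in the window. Peaks listed in no other genotype made up 8.37% of the mdxTLR4-/- list, and the Dmd peak is 1 of these. It was kept under a higher limit on read density (1.5 times the 1st percentile of each list) and with lists of equal size, and lost where only peaks of at least 2 kb were counted. The 1st percentile was 15.5 reads per kb in WT, 18.0 in mdx and 14.1 in mdxTLR4-/-, so this limit was lowest in mdxTLR4-/-. Of 59 protein-coding genes with a body of at least 1 Mb, 10 had no H3K27me3 peak in any list.

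H3K27ac did not lie at any start of Dmd. The WT list had 1 peak in the window, at chrX:83523801-83524600 in intron 7, with 6 reads. The mdx list had 1 peak at chrX:84293201-84296800 in intron 45 with 9 reads and 1 at chrX:84808801-84810600 in intron 57 with 7 reads. The mdxTLR4-/- list had none. No such peak was shared by a pair of lists, and H3K27ac peaks found in no other list were common, at 37.1% of the WT list and 27.6% of the mdx list. The nearest H3K27ac peak to the long-form start lay 286 kb away in WT, 411 kb in mdx and 1299 kb in mdxTLR4-/- BMDM.

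Utrn, on the minus strand at chr10:12382188-12869365, was the only one of the 8 genes with H3K27ac at the gene start, and it was so in each list. The background of genes with H3K27ac within 1 kb of the start was 27.9% in WT, 23.8% in mdx and 25.7% in mdxTLR4-/-, and 18.3% in all 3 lists. The 300 bases before the start of Utrn-205, its transcript with the most exons, lay whole in the peak of every list and are shown for that reason, read from the minus strand of GRCm38.p6 at chr10:12869366-12869665, with CG in capitals.
Utrn, bases before the start: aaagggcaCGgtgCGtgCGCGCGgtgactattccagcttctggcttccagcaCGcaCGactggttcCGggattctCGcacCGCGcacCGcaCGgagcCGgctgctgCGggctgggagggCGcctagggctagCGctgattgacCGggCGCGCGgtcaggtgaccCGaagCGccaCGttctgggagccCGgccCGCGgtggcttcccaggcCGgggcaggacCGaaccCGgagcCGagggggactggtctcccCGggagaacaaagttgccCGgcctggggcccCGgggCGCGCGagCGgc
They hold 38 CG dinucleotides, more than 95.05% of the RefSeq promoters, whose windows also take in 50 bases after the start.

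The WT peak at Utrn, chr10:12867801-12869800, held 10 reads. The mdx peak, chr10:12868201-12869800, held 7 reads and was lost where at least 10 reads per peak were required. The mdxTLR4-/- peak, chr10:12868401-12870000, held 19 reads from its 1 library. Per kb these were 5.00, 4.38 and 11.9 reads, and the mdxTLR4-/- peak was as dense as or denser than 84.4% of its list, against 33.3% in WT and 26.4% in mdx. The density ratio of mdxTLR4-/- to WT was 2.38, with an exact Clopper-Pearson 95% interval of 1.05 to 5.72 that covers counting error only. That of mdx to WT was 0.875 (0.283 to 2.55). The median of such ratios over all regions shared by the H3K27ac lists was not computed, so these have no baseline. Without dividing by peak length, the reads of mdxTLR4-/- to WT gave 1.90 (0.841 to 4.57), an interval that includes 1. Scaled to the reads in peaks of each list, the density ratios were 3.86 and 1.25, so that of mdx to WT turned direction with the scaling. The peaks thus cover the same start in each list with few reads, of which mdxTLR4-/- had the most. The inner start of Utrn-201 lay 6.07, 6.47 and 6.67 kb from these peaks and had none of its own. No H3K27me3 peak was listed in the Utrn window, and the nearest to its start were 15.0 kb away in WT, 71.8 kb in mdx and 72.0 kb in mdxTLR4-/-.

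**Figure D3:**
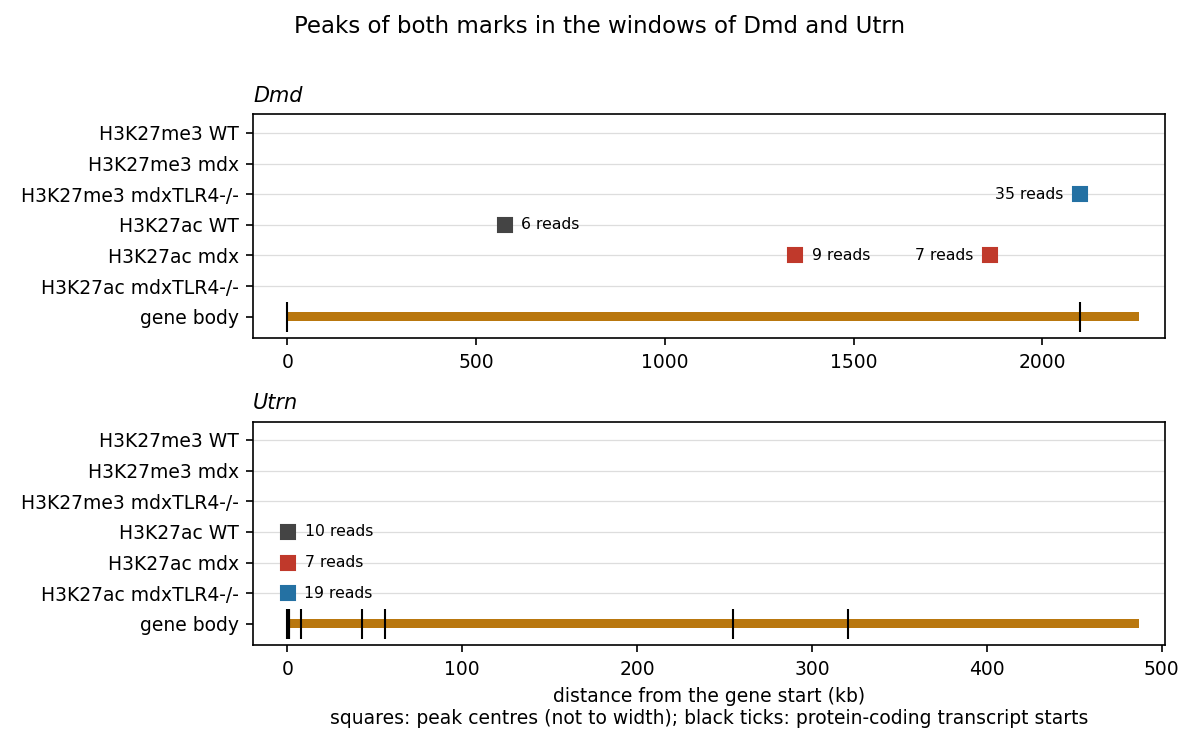
Peaks of both marks in the windows of Dmd and Utrn by distance from the gene start in kb (horizontal axis), with 1 line for each mark and genotype. Squares mark peak centres with their reads, and black ticks the starts of protein-coding transcripts. The single H3K27me3 peak of Dmd (35 reads, mdxTLR4-/-) sits at the inner start, and the 3 H3K27ac peaks of Utrn sit at the outermost start.

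Dag1, on the minus strand at chr9:108204634-108263958, encodes dystroglycan, the laminin receptor of the complex. Its start is among the CG-richest of promoters, with 47 CG dinucleotides in the RefSeq window at chr9:108263766-108264065 of GRCm38.p6 (minus strand), more than 98.6% of promoters, and neither mark was listed on it in any genotype.
Dag1 promoter: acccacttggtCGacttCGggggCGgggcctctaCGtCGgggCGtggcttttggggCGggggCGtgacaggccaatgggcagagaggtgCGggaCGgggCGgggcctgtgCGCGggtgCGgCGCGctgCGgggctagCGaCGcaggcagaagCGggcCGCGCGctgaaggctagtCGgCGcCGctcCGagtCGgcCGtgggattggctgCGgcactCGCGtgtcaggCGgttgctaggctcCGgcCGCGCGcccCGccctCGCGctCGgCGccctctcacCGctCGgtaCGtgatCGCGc
The H3K27me3 peaks lay upstream of it and none touched the gene body. They began 2.64 kb before the start in WT, 3.64 kb in mdx and 4.84 kb in mdxTLR4-/-, so that window coverage was 3.61%, 2.08% and 0.242%. The WT list had 2 peaks here, chr9:108266601-108270600 with 77 reads and chr9:108271401-108276600 with 181 reads. The mdx list had 1, chr9:108267601-108280600, with 321 reads, and the mdxTLR4-/- list had 1, chr9:108268801-108275400, with 162 reads. Merged over the lists, the domain was 14 kb long with no protein-coding gene under it, and 65.7%, 92.9% and 47.1% of it was covered. Under the higher limit on read density, which differs between lists, the window peaks of WT and mdx were lost. No H3K27ac peak was in the Dag1 window, the nearest being 40.0, 39.8 and 28.4 kb from the start.

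The sarcoglycans held most of the H3K27me3. Sgca, the gene of alpha-sarcoglycan, which is largely limited to striated muscle, lies on the minus strand at chr11:94962791-94976327 and was under a peak over its whole body in every list. Its promoter, chr11:94976278-94976577 (minus strand, RefSeq, GRCm38.p6), lay whole in the peaks of all 3 lists and is shown beside the CG-rich starts as the marked start poor in CG, with 4.
Sgca promoter: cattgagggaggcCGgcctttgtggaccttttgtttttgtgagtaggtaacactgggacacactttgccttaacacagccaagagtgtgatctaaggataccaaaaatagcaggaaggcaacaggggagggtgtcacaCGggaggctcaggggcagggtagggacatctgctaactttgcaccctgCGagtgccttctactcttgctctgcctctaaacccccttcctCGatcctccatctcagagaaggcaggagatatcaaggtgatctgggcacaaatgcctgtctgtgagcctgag
The peak over Sgca held 6053 reads in WT BMDM (chr11:94856401-94977800, 121 kb). It held 3489 reads in mdx BMDM (chr11:94917801-94977200, 59.4 kb) and 3831 in mdxTLR4-/- BMDM (chr11:94899201-94977800, 78.6 kb). Read density was high in each, at 49.9, 58.7 and 48.7 reads per kb, as dense as or denser than 96.7%, 97.2% and 96.0% of the peaks of the lists. The lengths follow from where 1 domain was split into peaks. Merged over the lists it ran for 249 kb (chr11:94729201-94977800), of which 98.5%, 97.6% and 95.7% was covered, in 5, 5 and 7 peaks separated by gaps of 800 bp or more. Its reads summed to 10743, 12076 and 10241. Col1a1, the collagen gene used above as a fibroblast marker, lies in the same domain and was covered at 100% in each list. No H3K27ac peak was in the Sgca window. Outside it, within Col1a1 and inside the H3K27me3 peak over Sgca, mdx had H3K27ac at chr11:94951001-94951800 with 7 reads. The mdxTLR4-/- list had it there at chr11:94950401-94952000 with 19 reads.

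Sgcb encodes beta-sarcoglycan and lies on the minus strand at chr5:73632749-73647790. H3K27me3 lay upstream of its start in each list. The peak began 611 bp upstream of the start in WT, 11 bp in mdx and 611 bp in mdxTLR4-/-, and none of the gene body was covered. The promoter, chr5:73647688-73647987 (minus strand, RefSeq, GRCm38.p6), is shown because this boundary crossed it in mdx alone, where the peak took in 62.3% of it. Peaks were called in windows of 200 bp, so the boundary is known no more finely than that.
Sgcb promoter: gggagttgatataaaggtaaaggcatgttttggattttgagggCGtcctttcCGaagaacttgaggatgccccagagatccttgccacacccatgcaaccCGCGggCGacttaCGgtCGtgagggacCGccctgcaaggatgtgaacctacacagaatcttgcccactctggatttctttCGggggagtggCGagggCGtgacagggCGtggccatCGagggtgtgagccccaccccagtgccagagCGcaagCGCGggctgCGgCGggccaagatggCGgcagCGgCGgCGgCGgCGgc
It holds 24 CG dinucleotides, more than 80.0% of promoters. The peaks nearest the gene were chr5:73648401-73666800 with 527 reads in WT, chr5:73647801-73659800 with 497 in mdx and chr5:73648401-73654000 with 232 in mdxTLR4-/- BMDM. They lay over the start of the neighbouring gene Spata18, which runs the other way, and covered 70.5%, 61.2% and 34.2% of the body of Spata18 together with the peaks beside them. The merged domain of 19 kb was covered at 96.8%, 86.3% and 47.4%, lowest in mdxTLR4-/-, while coverage of the Sgcb window itself stayed at 20.9%, 23.7% and 20.9%.

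Sgcd, the gene of delta-sarcoglycan, lies on the minus strand at chr11:46896253-47988969. A peak sat on its outermost start in each list, with 66 reads in WT (chr11:47987401-47990400), 32 in mdx (chr11:47988401-47989600) and 47 in mdxTLR4-/- (chr11:47987601-47989600). That is 22.0, 26.7 and 23.5 reads per kb over 0.273%, 0.109% and 0.182% of the window, and the WT and mdx peaks were lost under the higher limit on read density. The mdxTLR4-/- peak, less dense than that of mdx, was kept under the lower limit of its own list. This start belongs to Sgcd-203, which the annotation lists as a processed transcript without a coding sequence. Both protein-coding transcripts start farther in, Sgcd-202 at 410 kb and Sgcd-201 at 609 kb from it, and no H3K27me3 peak was listed at either. The 300 bases before the outermost start lay whole in the peaks of all 3 lists and are shown from the minus strand of GRCm38.p6 at chr11:47988970-47989269.
Sgcd, bases before the outermost start: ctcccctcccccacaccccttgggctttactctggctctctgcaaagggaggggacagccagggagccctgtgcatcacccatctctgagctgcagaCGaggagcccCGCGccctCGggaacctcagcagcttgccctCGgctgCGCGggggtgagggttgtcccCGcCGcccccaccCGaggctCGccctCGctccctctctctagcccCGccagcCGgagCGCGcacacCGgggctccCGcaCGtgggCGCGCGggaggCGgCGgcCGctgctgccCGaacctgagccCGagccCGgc
They hold 28 CG dinucleotides, more than 85.8% of the RefSeq promoters. Sgcd also had H3K27ac peaks of low counts deep in the gene, and none was shared between lists. The WT list had 7 reads at chr11:46905601-46908800 and 8 at chr11:47432001-47434800. The mdx list had 6 reads at chr11:46999801-47000200 and 6 at chr11:47361201-47362400, and the mdxTLR4-/- list had no peak. Sgcd, Dmd and Utrn were the 3 genes with any H3K27ac in the window in WT and in mdx, and Utrn was the 1 gene in mdxTLR4-/-, where the background was 39.9%, 34.5% and 36.5%.

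Sgce encodes epsilon-sarcoglycan, which is expressed well beyond muscle and is imprinted together with its neighbour Peg10, both being active from the paternal copy. It lies on the minus strand at chr6:4674350-4747207, and a pair of H3K27me3 domains covered its 5′ part in each list. In WT BMDM the peak over the start, chr6:4729801-4748800, held 522 reads, and the next, chr6:4719401-4729000, held 222. In mdx BMDM the peaks chr6:4729401-4748800 and chr6:4719001-4728600 held 816 and 361 reads. In mdxTLR4-/- BMDM each domain was broken once. The parts chr6:4746001-4748000 over the start and chr6:4730201-4743600 held 59 and 400 reads, and chr6:4725601-4729000 and chr6:4720001-4724800 held 85 and 104 reads. The start domain reached across the gap between the genes and over the start of Peg10, whose body was covered at 31.0%, 43.1% and 32.5%. Away from these domains, WT had a peak of 73 reads across the 3′ end of the gene (chr6:4672401-4676400) and mdx 1 of 44 reads inside the gene (chr6:4697801-4699600), each listed in that genotype alone. Window coverage of Sgce was 40.1% in WT, 39.1% in mdx and 29.9% in mdxTLR4-/-. From WT to mdxTLR4-/- it fell by 10.2 percentage points, and it was the 1 gene of the 8 to differ between any pair of lists by at least 10 points. Over all protein-coding genes, such a fall was met by 8.41% and such a rise by 2.61% from WT to mdxTLR4-/-. From WT to mdx these shares were 5.51% and 4.90%, and from mdx to mdxTLR4-/- 7.73% and 2.52%, with none of the 8 genes among them. The fall at Sgce turned under the same higher limit, which left 24.1% covered in WT and 29.9% in mdxTLR4-/-. Within 2.5 kb of the Sgce start, 81.9% was covered in WT and in mdx and 40.0% in mdxTLR4-/-. No H3K27ac peak was in the windows of Sgcb or Sgce.

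**Figure D4:**
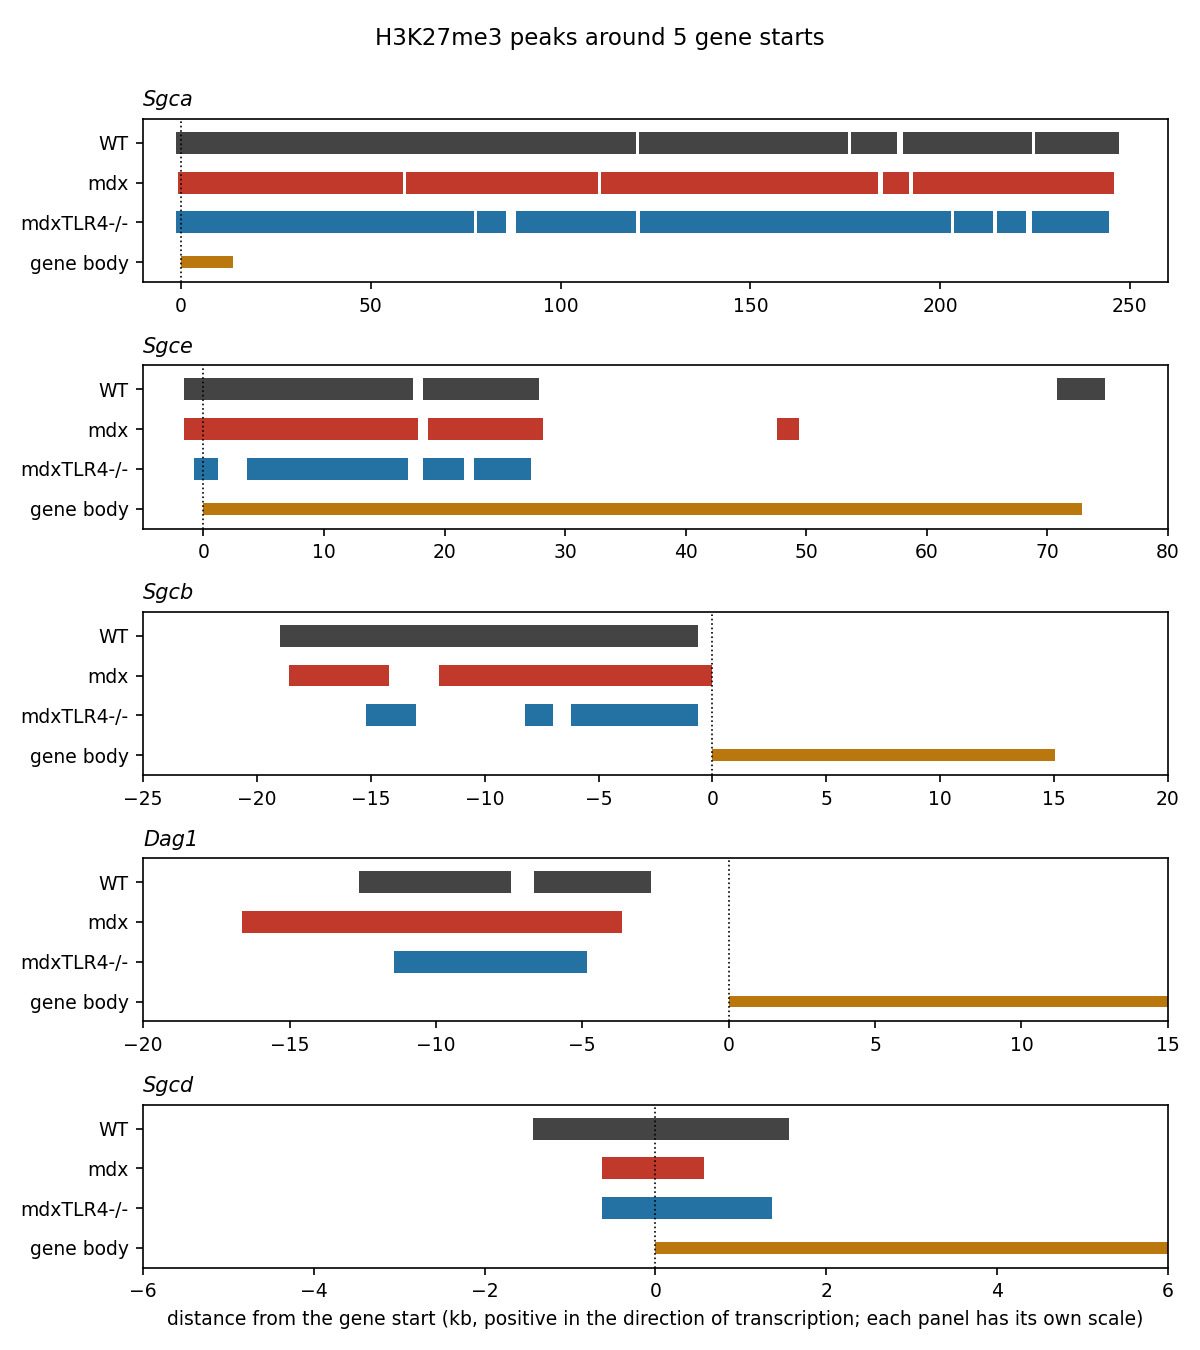
H3K27me3 peaks of the 3 genotype lists around the starts of Sgca, Sgce, Sgcb, Dag1 and Sgcd. The horizontal axis is the distance from the gene start in kb, positive in the direction of transcription and scaled for each panel, and the brown bar is the gene body. Sgca lies at one end of a 249 kb domain split into 5, 5 and 7 peaks, the peaks at Sgcb end 0.611 kb before the start in WT and mdxTLR4-/- and 0.011 kb before it in mdx, and those at Dag1 stay 2.64 kb or more upstream.

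Dtna, the gene of alpha-dystrobrevin, lies on the plus strand at chr18:23415135-23659715. No peak of either mark was listed in WT. In mdx BMDM 1 H3K27me3 peak, chr18:23497401-23498400, held 33 reads, and in mdxTLR4-/- BMDM the peak chr18:23496601-23498200 held 30. Both covered exon 3 of Dtna-203, and the mdxTLR4-/- peak also covered the start of a non-coding transcript, Dtna-210, from which the mdx peak lay 566 bp away. The peaks were among the smallest of their lists, with as many reads as or more reads than 3.26% and 5.77% of the peaks. They overlapped each other, and no H3K27ac peak was in the window. Neither was kept at a minimum length of 2 kb, and the mdxTLR4-/- peak was also lost under the higher limit on read density.

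H3K27me3 and H3K27ac were nowhere listed on the same bases of a window. Over the 8 genes and 3 genotypes there were 25 H3K27me3 and 10 H3K27ac peaks, with 0 overlapping pairs within a genotype. These counts take in H3K27ac peaks inside the windows only. Only Sgcd, in WT and in mdx, had both marks in its window, with 1 H3K27me3 and 2 H3K27ac peaks each. In the other windows no overlap could arise, and the share of overlap over all genes was not computed. Beyond the Sgca window, the mdx and mdxTLR4-/- H3K27ac peaks within Col1a1 lay inside H3K27me3 peaks of the same genotype. Among the 7 sequences given above, H3K27ac lay on that of Utrn in every list. H3K27me3 lay on those of Sgca and Sgcd in every list and on part of that of Sgcb in mdx, and the remaining 3 had neither mark. The motif GGGCGG, searched on both strands, was found in 35.7% of the RefSeq promoters and had 4 matches in the Dag1 window, 3 in the inner Dmd window, 1 each at Sgcb and Sgcd and 0 at Utrn, Sgca and the long-form Dmd start. The motif TGACTCA was found in 5.20% of promoters and had 2 matches in the long-form Dmd window. TATAAA, found in 13.6%, had 1 match each at Sgcb and the long-form Dmd start, and GAGGAAGT, found in 3.20%, had none in these windows.

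Reads in the H3K27me3 domains merged from the lists were compared between genotypes in 2 ways. Density is the reads of a list divided by the length that the same list called within the domain, so that its denominator differs between lists. Listed reads are the sum of the reads in its peaks over the whole domain, which leaves out reads between peaks. Both must be read against the shift of all regions shared by a pair of lists, since the depth of the libraries is unknown. The median density ratio of mdx to WT was 1.22 (quartiles 1.11 and 1.34 over 21022 shared regions), and that of mdxTLR4-/- to mdx was 0.788 (0.709 and 0.877 over 23911). The medians of the ratio of listed reads were 1.14 and 0.732. Of the 6 domains with peaks in both WT and mdx, those of Sgce lay farthest above these shifts by either measure. The start domain of Sgce had 27.5 reads per kb in WT, 42.1 in mdx and 29.8 in mdxTLR4-/-, a ratio of mdx to WT of 1.53 (1.37 to 1.71, exact interval of counting error), higher than in 92.5% of shared regions. The domain in the gene body had 23.1, 37.6 and 23.0 reads per kb, with a ratio of 1.63 (1.37 to 1.93), higher than in 95.8% of shared regions. The listed reads gave 1.56 (1.40 to 1.75) and 1.63 (1.37 to 1.93), higher than in 89.7% and 91.2% of shared regions. From mdx to mdxTLR4-/- the density ratios were 0.709 (0.631 to 0.795) and 0.613 (0.511 to 0.733), and the listed reads gave 0.563 and 0.524. Scaled to the reads in peaks of each list, the density ratio of mdx to WT stayed above 1 in both domains, at 1.25 and 1.33. That of mdxTLR4-/- to mdx was then 0.982 in the start domain, against 0.850 in the domain of the body.

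At Dag1 the mdx to WT ratio changed sides with the length divided by and with the peaks taken in. The lists held 258, 321 and 162 reads in the domain over 9.2, 13 and 6.6 kb of peaks, or 28.0, 24.7 and 24.5 reads per kb called. The density ratio of mdx to WT was 0.881 (0.745 to 1.04), higher than in 3.03% of shared regions. The listed reads gave 1.24 (1.05 to 1.47), higher than in 67.2% of shared regions. Over the peaks that touch the window alone, as first planned, the density ratio of mdx to WT was 1.28 (0.997 to 1.67). From mdx to mdxTLR4-/- the density ratio was 0.994 (0.818 to 1.20), higher than in 90.1% of shared regions. The listed reads gave 0.505 (0.415 to 0.611), higher than in 14.8% of shared regions. Sgca, with the most reads and nearly the same length called in each list, had a density ratio of 1.13 (1.11 to 1.16) for mdx to WT and 0.864 (0.842 to 0.888) for mdxTLR4-/- to mdx, and the listed reads gave 1.12 and 0.848. Both density ratios turned direction when scaled to reads in peaks, at 0.926 and 1.20. For Sgcb the ratio of mdx to WT was 1.28 (1.13 to 1.44) by density and 1.14 (1.01 to 1.28) by listed reads. From mdx to mdxTLR4-/-, with less of the domain called, it was 0.908 (0.788 to 1.04) by density and 0.498 (0.432 to 0.573) by listed reads. For Sgcd, with 66 reads over 3 kb in WT and 32 over 1.2 kb in mdx, the direction also turned, from 1.21 (0.769 to 1.88) by density to 0.485 (0.308 to 0.750) by listed reads. For Dtna, with peaks of 1.6 and 1 kb, the ratio of mdxTLR4-/- to mdx was 0.568 (0.335 to 0.961) by density and 0.909 (0.536 to 1.54) by its 30 and 33 reads. The ratios of Dag1, Sgcb, Sgcd and Dtna thus moved with the lengths called, and no difference between genotypes is read from them.

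**Figure D5:**
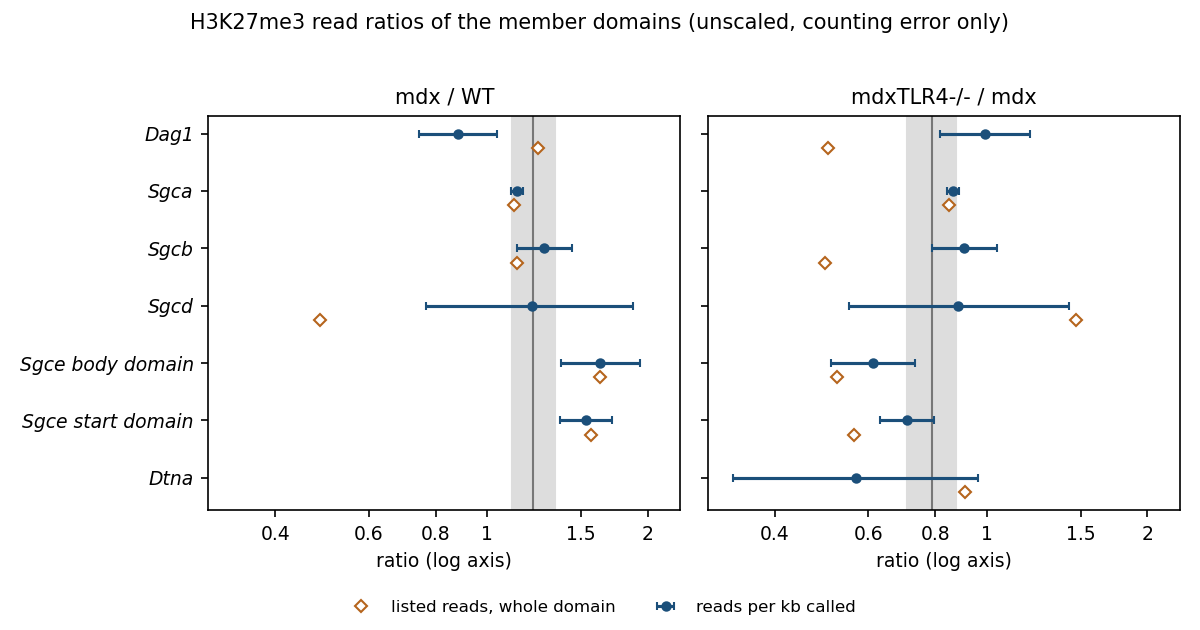
Ratio of H3K27me3 reads between genotypes (horizontal log axis, unscaled) for the merged domains of 6 genes. Filled points are ratios of reads per kb called in each list, with exact 95% intervals of counting error, and the grey line and band are the median and quartiles of that ratio over all shared regions. Open diamonds are ratios of the reads listed over the whole domain. For mdx to WT both measures are high in the 2 Sgce domains (1.53 and 1.63 per kb called), and they lie on opposite sides of 1 for Dag1 (0.881 and 1.24) and Sgcd (1.21 and 0.485).

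Other genes of the complex and its pathway were read in the same way. Of 11 further complex genes (among them sarcospan, syntrophins, beta-dystrobrevin, Drp2 and the nitric oxide synthase Nos1), 6 had an H3K27me3 peak in the window in WT and 8 in mdx and in mdxTLR4-/-, and none reached 50% coverage. The shares over all protein-coding genes were 38.4%, 41.3% and 39.0% with a peak and 16.6%, 16.3% and 14.9% at 50% coverage. Nos1, named after its values were seen, had 42.8%, 44.2% and 31.9% of its window covered, lowest in mdxTLR4-/-. None had H3K27ac at the start in all 3 lists, against 18.3% of all genes. Of 12 genes that glycosylate dystroglycan, 3, 5 and 4 had an H3K27me3 peak, against the same 38.4%, 41.3% and 39.0%. Pomgnt2 had the highest coverage of these, at 46.1%, 59.1% and 47.9%, and the mannosyltransferase gene Pomt2 was the 1 with H3K27ac at the start in every list, with 9, 11 and 7 reads. Of 5 matrix ligands of dystroglycan, 4 had an H3K27me3 peak in each list (34.8% of all genes), and Hspg2, perlecan, was covered at 97.8%, 97.2% and 98.5%. Lama2, the laminin chain of the muscle basement membrane, had no peak of either mark at its start and no H3K27me3 in its window.

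By coverage in the 3 H3K27me3 lists, the genes most like each of the 5 genes with a peak in every list were found among protein-coding genes with windows within 2-fold in length. They were Rsph6a, Zfp651 and Npas1 for Sgca, the nearest at a distance of 1.74 percentage points. For Sgce they were Rab30, Mab21l3 and Xrra1 (2.70 points for the nearest), and for Sgcb Mpg, Ccs and Aqp8 (0.563 points). For Dag1 they were Mpp6, Slc36a4 and Mapre1 (0.250 points), and for Sgcd they included Pcdh15, the nearest (0.0451 points), and Naaladl2.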

How the data were processed

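ChIP-seq of H3K27me3 and H3K27ac was made in BMDM of WT, mdx and mdxTLR4-/- mice, in 18 libraries with inputs. Per the study's methods, the authors mapped reads to mm10 with Bowtie2, merged replicates and called peaks with SICER2 (windows of 200 bp, gaps of 600 bp, FDR below 0.01). The submitters' processing notes name CASAVA 1.8, cutadapt 1.15, Bowtie2 2.3.4 and SICER 2.0. The deposited lists give the position of each peak and its ChIP read count, which the authors did not scale for depth or length or correct for input. Use of duplicate reads is not given in the sources used here. The label mTLR4 was read as mdxTLR4-/-. Library depth is unknown here.

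Positions were made 1-based. A peak was listed for a gene when it overlapped the window by at least 1 bp, and coverage is the percent of window bases under peaks. Domains are peaks of the 3 lists merged where they overlap. Density ratios carry exact Clopper-Pearson 95% intervals of the read counts, which cover counting error only and not the spread between mice. Genes came from GENCODE vM21 (55450 genes, of which 21938 protein-coding outside the mitochondrial chromosome are the background). Some genes that the rule below names are not reported here. Promoter sequences came from RefSeq (GRCm38.p6, an entry for 6 of the 8 genes, all but Sgce and Dtna). For Utrn and Sgcd, whose entries lie at inner starts outside the peaks, bases before the outermost annotated start were read from that genome instead, which for Sgcd is the start of a non-coding transcript.

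The 8 members and the other lists were chosen with earlier results of these data known. Named genes were all members, for each member with H3K27me3 in every list the 3 genes nearest in coverage, and in the other lists those with at least 50% coverage or with H3K27ac at the start in every list. Cx3cr1, Lama2 and Nos1 were named after their values were seen. Alternatives were peak length, read density, equal list sizes, window, overlap, coverage limit, distance from the start and scaling. The use of whole domains in place of windows, and of listed reads beside density, was chosen after seeing the data. The procedure was tested on simulated data. Scripts ran under Python 3.11.15 with scipy 1.17.1, numpy 2.4.6 and matplotlib 3.10.9. Input libraries were not analysed here.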

Additional observations from a re-analysis of the deposited data

How the results depend on the processing

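No paired analysis was possible because the replicates were merged before peaks were called, and for the same reason no replicate could be left out. Under the alternatives, 48 counts of member genes stayed within 1.5 times the reported count and 9 did not. The number of members with an H3K27me3 peak in WT fell from 5 to 3 with a stricter read density, which dropped Dag1 and Sgcd, and to 3 over gene bodies alone. The stricter density was set for each list and was lowest in mdxTLR4-/-. The stricter density also dropped Dag1 and Sgcd in mdx (6 to 4) and Dtna in mdxTLR4-/- (7 to 6), and lists of equal size dropped Dag1 in mdx (6 to 5) and Dtna in mdxTLR4-/- (7 to 6). An overlap of at least 200 bp dropped Dag1 in mdxTLR4-/- (7 to 6). A minimum length of 2 kb dropped Sgcd and Dtna in mdx (6 to 4) and Dmd and Dtna in mdxTLR4-/- (7 to 5). The number with at least 50% coverage rose from 1 to 3 in each genotype at a limit of 20%, and within 2.5 kb of the gene start it was 3 in WT and 2 in mdx. With at least 10 reads per peak, the members with H3K27ac in the window fell from 3 to 1 in WT, which was Utrn. They fell to 0 in mdx, where Utrn was lost as well. Ratios of read density over the whole peaks that touch the Sgca window turned direction with scaling: mdx to WT was 0.962 scaled to reads in peaks, and mdxTLR4-/- to mdx was 1.15 scaled to reads in peaks and 1.06 scaled to the 1st percentile of density, while the unscaled values were 1.18 and 0.830. The mdxTLR4-/- to WT ratio of Sgcb was 1.45 by density over the peaks that touch the window. It was 1.16 by density over the whole domain and 0.567 by listed reads there, both added after seeing the data. Only the last step leaves out the division by called length. The cause of the turns with scaling was not tested. H3K27ac calls at Dmd and Sgcd rest on 6 to 9 reads each, and the mdxTLR4-/- list of that mark on 1 library.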
